A study of Rattus norvegicus with 12 samples.

Results

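The comparison described here is the average change between 5 days and 3 months after birth in cultured rat articular chondrocytes, taken over both strains of the series. All 12 RNA-seq libraries entered it, 6 at each age. At each age 3 libraries came from spontaneously hypertensive rats (SHR) and 3 from Wistar Kyoto rats (WKY), a strain with normal blood pressure. The cells of all 4 groups were grown out of femorotibial cartilage (knee joint) after collagenase digestion and were kept as a monolayer in medium with serum, so each value is that of cultured cells and not of the tissue itself. Per the labels, replicates 1 and 2 of every group belong to batch 1 and replicate 3 to batch 2. Sex is not in the labels, nor is it stated which collagenase concentration a sample received or whether replicates are separate animals. The p-values then measure only the spread between these 12 samples, which may be technical. Strain and batch were terms of the model, a gene was called where its edgeR adjusted p was under 0.05, and log2 fold changes are 3 months over 5 days.

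In mammals, rapid growth of the skeleton after birth slows with age, and a network of imprinted genes (genes read from only 1 parental copy) is known for high activity in fetal and newborn tissue and a decline in several organs afterwards. Insulin-like growth factors, which drive cartilage growth, and RNA-binding proteins of the fetal period belong to the same setting. Articular chondrocytes make type II, IX and XI collagen and aggrecan under control of the transcription factor Sox9, and they tend to exchange this program for a fibroblast-like one when grown as a monolayer.

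Total counts ran from 17839101 to 20358123 per library. Sox9 was detected in all 12 libraries, while Matn1, a cartilage matrilin, stayed at or under 0.278 CPM (counts scaled to library size) in every library except the 5-day libraries of batch 2, which had 14.1 and 46.5 CPM. The name chondrocyte therefore follows the labels. Replicates 1 and 2 of SHR at 5 days were far closer to each other than other replicates (chi-square per gene 4.005, against 37.2 to 314 for the other pairs), above sampling noise. They were kept as separate samples, and with both averaged and counted as 1 the calls below came to 1207 in place of 1889. Y-linked transcripts reached 60.7 and 131 CPM in WKY 5-day replicates 3 and 2, and at most 0.944 CPM elsewhere. Without these 2 libraries 1231 genes were called.

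Of 13397 genes tested, 1889 (14.1%) differed between the ages by edgeR's quasi-likelihood test with Benjamini-Hochberg adjustment. Of these, 1001 (7.47% of the tested genes) were higher and 888 (6.63%) were lower at 3 months. A change of at least 2-fold was seen in 424 of the higher and 421 of the lower genes, and one of at least 8-fold in 73 and 130. The median log2 fold change over all tested genes was -0.02. By the same test 6171 of the 13397 genes differed between the batches and 303 between the strains. Each group had 1 library of batch 2, and without the batch term 663 genes were called for age. For 481 genes (3.59% of those tested) the 6 libraries of one age all lay above the 6 of the other, at 3 months for 237 (1.77%) and at 5 days for 244 (1.82%). In these bulk cultures, fewer cells of a type and less RNA per cell cannot be told apart. Leaving out 1 library moved the number of calls between 997 (without WKY 3-month replicate 1) and 2608 (without SHR 3-month replicate 2), and 856 calls, 453 higher and 403 lower, were made in each of these 12 fits. The count fell by more than 1.5 times also without SHR 5-day replicate 1 (1185), SHR 5-day replicate 2 (1189), SHR 3-month replicate 1 (1160) or SHR 3-month replicate 3 (1246). Unless a sentence says otherwise, the call of a gene given below with its values held in each of the 12 fits. Calls of genes given by name alone did not all hold in each fit.

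Imprinted growth genes had the lowest median change of the 29 gene lists described. Of 27 listed genes 20 passed the count filter and were tested, and of these 13 fell and 0 rose (65.0% called, against 14.1% of all tested genes), and their median log2 fold change was -2.06. Peg3 (gene 103691034), a zinc finger protein read from the paternal copy, ran from 199 to 1395 CPM at 5 days (median 442) and from 8.12 to 22.1 CPM at 3 months (median 12.4), a log2 change of -5.26 ± 0.33 (SE, adjusted p by edgeR 0.000147), the smallest adjusted p of these genes. Mest (gene 58827), a membrane protein with a hydrolase fold that is read from the paternal copy, had a median of 199.5 CPM at 5 days (range 102 to 508) and 3.67 CPM at 3 months (range 0.782 to 11.996), for a log2 change of -5.70 ± 0.50 (SE, adjusted p by edgeR 0.000294). Plagl1 (gene 25157), a zinc finger transcription factor of fetal growth, lay between 33.7 and 257 CPM at 5 days and between 0.0521 and 7.02 CPM at 3 months, with medians of 60.1 and 1.03 CPM and a log2 change of -5.79 ± 0.57 (SE, adjusted p by edgeR 0.000429). In each of these 3 genes every 5-day library lay above every 3-month library, in both strains and both batches.

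Zim1 (gene 308322), a further imprinted zinc finger gene, ran from 5.33 to 34.3 CPM at 5 days (median 11.4) and from 0 to 0.224 CPM at 3 months (median 0.0253), a log2 change of -8.12 ± 0.75 (SE, adjusted p by edgeR 0.000381). By the promoter windows of RefSeq, the starts of Peg3 and Zim1 lie 34214 bases apart on chromosome 1 of assembly GRCr8. Dlk1 (gene 114587), a membrane-bound relative of the Notch ligands, had a median of 20.04 CPM at 5 days (range 3.26 to 87.4) and 0.406 CPM at 3 months (range 0.117 to 1.05), for a log2 change of -5.38 ± 0.88 (SE, adjusted p by edgeR 0.00473). Neither gene's ages overlapped. The remaining members that fell were Igf2, Cdkn1c, Grb10, Peg10, Ndn, Slc38a4, Nnat and Peg12, and 12 of the 13 calls held whichever library was left out. In batch 1 alone 12 members were called and in batch 2 alone 5. The median was -1.74 in WKY and -2.41 in SHR, and -1.71 and -1.92 in batches 1 and 2, negative in each of these sets. H19, the imprinted RNA next to Igf2, was not analysed here.

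Peg10 and Sgce lie head to head and share a promoter region, yet their values differed. Both were singled out after their values were seen. Peg10 (gene 102553587), a gene derived from a retrotransposon, lay between 11.1 and 66.4 CPM at 5 days and between 1.35 and 14.9 CPM at 3 months, with medians of 24.9 and 4.89 CPM and a log2 change of -2.37 ± 0.24 (SE, adjusted p by edgeR 0.000487). Sgce (gene 432360), which encodes a sarcoglycan and is read outward on the opposite strand, ran from 73.4 to 167 CPM at 5 days (median 101) and from 67.3 to 278 CPM at 3 months (median 84.8), a log2 change of 0.01 ± 0.16 (SE, adjusted p by edgeR 0.978) and was not called. A difference between the 2 genes was not tested. Their starts are 238 bases apart, and their promoter windows (250 bases before to 50 after the start) share 263 bases. The Peg10 window is shown with the bases from the Sgce start to the Peg10 start in capitals, beside the Peg3 window, in which capitals mark GGGGCCCC. That palindrome is known as a binding sequence of the protein made from Plagl1. Windows are from RefSeq, assembly GRCr8, a later build than the one used for counting: chr4:33808776-33809075 (plus strand) for Peg10 and chr1:76130744-76131043 (plus strand) for Peg3.
Peg10: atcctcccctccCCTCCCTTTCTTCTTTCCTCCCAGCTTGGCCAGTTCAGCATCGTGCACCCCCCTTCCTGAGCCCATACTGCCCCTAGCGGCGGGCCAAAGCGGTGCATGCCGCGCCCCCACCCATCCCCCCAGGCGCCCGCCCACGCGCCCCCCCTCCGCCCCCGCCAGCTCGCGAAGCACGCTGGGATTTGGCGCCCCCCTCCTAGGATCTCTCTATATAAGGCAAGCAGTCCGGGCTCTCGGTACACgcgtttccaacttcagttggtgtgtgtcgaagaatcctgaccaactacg
Peg3: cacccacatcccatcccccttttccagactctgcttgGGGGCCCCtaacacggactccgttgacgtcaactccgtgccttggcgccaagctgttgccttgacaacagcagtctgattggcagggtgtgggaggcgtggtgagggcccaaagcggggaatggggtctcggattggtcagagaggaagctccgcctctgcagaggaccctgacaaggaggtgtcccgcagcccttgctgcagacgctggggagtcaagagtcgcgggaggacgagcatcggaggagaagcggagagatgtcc
Of 17 tested imprinted genes with a window, 2 (Peg3 and Gnas) hold the palindrome on either strand, which reads the same on both. Of all 33469 RefSeq windows 0.858% hold it, and 1.34% of the windows of tested genes. A match is a description of the letters only.

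**Figure D1:**
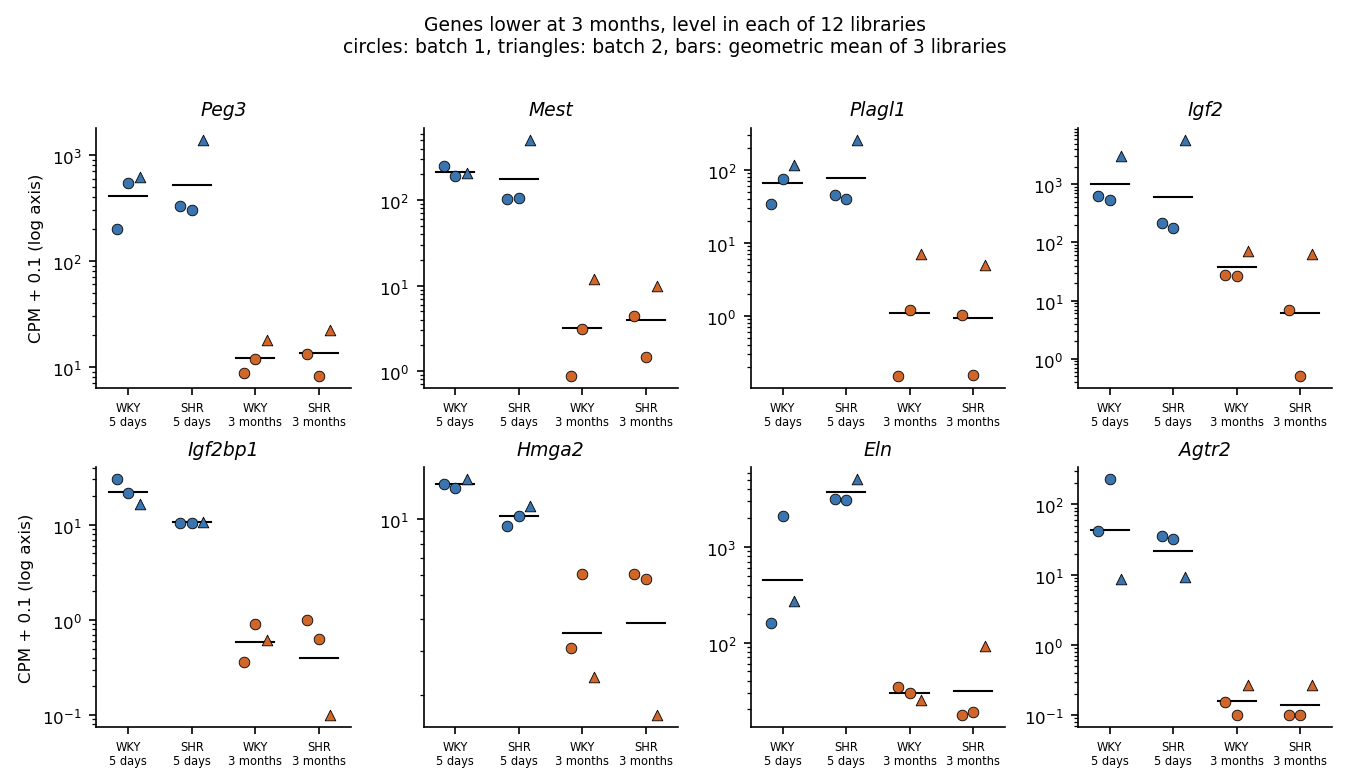
Level of 8 genes in each of the 12 libraries, in CPM plus 0.1 on a log axis, by strain and age; circles are batch 1, triangles batch 2, and bars the geometric mean of 3 libraries. In all 8 genes the 6 libraries at 5 days lie above the 6 at 3 months.

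Fetal RNA-binding proteins and targets of the let-7 microRNAs fell as well, 7 of 16 tested and 0 rising (43.8%), with a median log2 fold change of -0.84. let-7 microRNAs rise during development and repress these transcripts through their seed, bases 2 to 8. Their mature forms in RefSeq (GRCr8) share this seed, shown in capitals for 2 of them; microRNAs themselves were not measured.
rno-let-7b-5p: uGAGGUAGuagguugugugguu
rno-let-7e-5p: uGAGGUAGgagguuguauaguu
Igf2bp1 (gene 303477), an RNA-binding protein of fetal cells that binds Igf2 mRNA, had a median of 13.5 CPM at 5 days (range 10.3 to 30.2) and 0.518 CPM at 3 months (range 0 to 0.891), for a log2 change of -5.005 ± 0.49 (SE, adjusted p by edgeR 0.000429). Hmga2 (gene 84017), a chromatin protein of growing tissue and a textbook let-7 target, lay between 9.32 and 14.4 CPM at 5 days and between 1.57 and 5.98 CPM at 3 months, with medians of 12.2 and 4.32 CPM and a log2 change of -1.65 ± 0.31 (SE, adjusted p by edgeR 0.009202). Both genes had no overlap between ages. Igf2bp2 (gene 303824), of the same family, ran from 62.7 to 97.2 CPM at 5 days (median 74.2) and from 11.9 to 54.7 CPM at 3 months (median 20.5), a log2 change of -1.66 ± 0.30 (SE, adjusted p by edgeR 0.00774), again without overlap.

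Igf2bp3 (gene 312320) had a median of 24.8 CPM at 5 days (range 19.05 to 30.4) and 1.59 CPM at 3 months (range 0.616 to 25.4), for a log2 change of -2.86 ± 0.77 (SE, adjusted p by edgeR 0.0341). SHR 3-month replicate 2 reached the level of the 5-day libraries, and the call held in 3 of the 12 fits. Ccnd2 (gene 64033), a D-type cyclin that drives entry into the cell cycle, lay between 23.7 and 67.1 CPM at 5 days and between 11.99 and 30.6 CPM at 3 months, with medians of 52.1 and 22.7 CPM and a log2 change of -1.21 ± 0.20 (SE, adjusted p by edgeR 0.00557). Plag1 and Plagl2, zinc finger relatives of Plagl1, were the other members that fell. Of the 7 calls, 4 were made in each of the 12 fits, 2 in batch 1 alone and 2 in batch 2 alone, and without WKY 3-month replicate 1 the count was 4.

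The insulin-like growth factor axis changed in ligands, binding proteins and signal transducers. Of 18 tested genes 7 fell and 2 rose (50%; median log2 fold change -0.86). Among the ligands, Igf2 (gene 24483) ran from 177 to 5811 CPM at 5 days (median 586) and from 0.409 to 71.01 CPM at 3 months (median 26.8), a log2 change of -5.36 ± 0.73 (SE, adjusted p by edgeR 0.00194). Even the lowest 5-day library was above the highest at 3 months. Igf1 (gene 24482) had a median of 113 CPM at 5 days (range 10.7 to 370.4) and 14.95 CPM at 3 months (range 5.02 to 88.2), for a log2 change of -2.23 ± 0.65 (SE, adjusted p by edgeR 0.0455). Its ages overlapped, and its call held in only 3 of the 12 fits. Pappa2 (gene 680415), a protease that frees growth factor from its binding proteins, lay between 4.54 and 15.4 CPM at 5 days and between 0 and 0.643 CPM at 3 months, with medians of 12.6 and 0.264 CPM and a log2 change of -5.38 ± 0.55 (SE, adjusted p by edgeR 0.0005102), with no overlap. Of the binding proteins Igfbp3 and Igfbp6 fell, and Igfbp7 (gene 289560), a secreted relative, ran from 87.3 to 315 CPM at 5 days (median 222) and from 449.6 to 967 CPM at 3 months (median 906), a log2 change of 1.88 ± 0.30 (SE, adjusted p by edgeR 0.00457), with every 3-month library above every 5-day library. Stc1 (gene 81801), a secreted glycoprotein that inhibits the related protease Pappa, had a median of 5.44 CPM at 5 days (range 4.28 to 14.96) and 31.9 CPM at 3 months (range 11.04 to 44.1), for a log2 change of 2.01 ± 0.28 (SE, adjusted p by edgeR 0.00224). The adaptors Irs1 and Irs2, which carry the receptor's signal, fell too, with calls made in 2 and 5 of the 12 fits. Of the 9 calls, 6 were made in each of the 12 fits.

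The called genes of the cartilage matrix were all lower at 3 months. Of 20 tested members 7 fell and 0 rose (35.0%), and the median was -1.53, at -0.999 in batch 1 and -2.70 in batch 2. The summed CPM of the list ran from 1207 to 31526 at 5 days (median 3080) and from 735 to 3673 at 3 months (median 1424). The highest sums, 9926 and 31526, were those of the 5-day libraries of batch 2, and without these 2 libraries 5 members were called.

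Col2a1 (gene 25412), the main collagen of cartilage, lay between 10.01 and 24551 CPM at 5 days and between 0.0521 and 1346 CPM at 3 months, with medians of 648 and 1.88 CPM and a log2 change of -5.73 ± 1.25 (SE, adjusted p by edgeR 0.01598). At each age the libraries of batch 2 were the highest, the ages overlapped, and its log2 fold change was -7.08 in batch 1 and -3.98 in batch 2. Col9a3 (gene 362285), a chain of type IX collagen, ran from 0.206 to 316 CPM at 5 days (median 2.42) and from 0 to 4.76 CPM at 3 months (median 0.0846), a log2 change of -6.37 ± 0.52 (SE, adjusted p by edgeR 0.000239), with overlap through the 3-month libraries of batch 2. Sox9 (gene 140586) had a median of 16.5 CPM at 5 days (range 8.82 to 179.8) and 8.24 CPM at 3 months (range 2.14 to 29.1), for a log2 change of -1.58 ± 0.32 (SE, adjusted p by edgeR 0.0123). Matn3 (gene 313954), a matrix adaptor protein, lay between 0.619 and 57.6 CPM at 5 days and between 0.113 and 1.01 CPM at 3 months, with medians of 3.67 and 0.3402 CPM and a log2 change of -3.60 ± 0.59 (SE, adjusted p by edgeR 0.00488). Levels of both overlapped between ages, although they were lower at 3 months in both strains and both batches. Col9a1 and Col9a2 (gene 362584) (log2 fold change -3.52, edgeR adjusted p 0.01003) made up the other type IX chains, and all 3 chains fell.

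Comp (gene 25304), a glycoprotein that binds collagen fibrils, ran from 8.57 to 193 CPM at 5 days (median 16.6) and from 6.19 to 35.1 CPM at 3 months (median 7.27), a log2 change of -1.47 ± 0.43 (SE, adjusted p by edgeR 0.0449). Its call held in 3 of the 12 fits. Acan (gene 58968), the large aggregating proteoglycan, had a median of 314 CPM at 5 days (range 14.96 to 2453) and 6.86 CPM at 3 months (range 0.0505 to 187), for a log2 change of -4.81 ± 1.55 (SE, adjusted p by edgeR 0.0631) and was not called when the strains were pooled, although WKY had an adjusted p of 0.0458. Prg4 (gene 289104), the lubricant of the joint surface, lay between 0.458 and 87.2 CPM at 5 days and between 4.21 and 301 CPM at 3 months, with medians of 6.55 and 41.3 CPM and a log2 change of 2.65 ± 1.201 (SE, adjusted p by edgeR 0.158) and was not called either, with an adjusted p of 0.0332 within SHR. Col1a1 (gene 29393), the collagen of fibrous tissue and bone, ran from 11916 to 40725 CPM at 5 days (median 20958) and from 7878 to 32280.0 CPM at 3 months (median 24443), a log2 change of -0.13 ± 0.24 (SE, adjusted p by edgeR 0.733). Its levels at both ages covered almost the same range.

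Genes of cartilage hypertrophy, the growth plate's last stage before bone forms, gave 4 that fell and 1 that rose of 14 tested (35.7%), with a median of -0.07 that was 0.29 in batch 1 alone. Pth1r (gene 56813), the receptor for parathyroid hormone and PTHrP that holds hypertrophy back, had a median of 14.4 CPM at 5 days (range 10.6 to 17.9) and 2.96 CPM at 3 months (range 1.35 to 8.68), for a log2 change of -2.12 ± 0.29 (SE, adjusted p by edgeR 0.00211), without overlap. Mef2c (gene 499497), a transcription factor of hypertrophy, lay between 23.2 and 105 CPM at 5 days and between 12.5 and 38.4 CPM at 3 months, with medians of 42.2 and 21.9 CPM and a log2 change of -1.03 ± 0.23 (SE, adjusted p by edgeR 0.01603). Sp7 (gene 300260), the osteoblast transcription factor osterix, stayed at or under 2.33 CPM in every library (log2 fold change -3.91, edgeR adjusted p 0.0177), and its call was lost without SHR 5-day replicate 3. Enpp1 (gene 85496), which makes the mineralization inhibitor pyrophosphate, ran from 109 to 743 CPM at 5 days (median 207) and from 169 to 1063 CPM at 3 months (median 437), a log2 change of 0.82 ± 0.13 (SE, adjusted p by edgeR 0.00371). Smpd3, a sphingomyelinase of mineralizing cartilage, was the other member that fell, with a call made in 8 of the 12 fits. Of the 5 calls 3 were made in each fit, and the count ran from 3, without SHR 5-day replicate 3, to 7. Col10a1, the collagen that marks hypertrophic cells, had too few counts for the test, with 0 to 25 counts per library at 5 days and 0 or 1 at 3 months.

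In the Hedgehog and Wnt pathways the called genes fell, with Sfrp4 as the exception. In the Hedgehog and PTHrP list 4 of 11 fell and 0 rose (36.4%; median -0.43): Pth1r, Gli2 (gene 304729), a transcription factor of the pathway (log2 fold change -0.67, edgeR adjusted p 0.00486), Smo, the signal transducer, and Sufu, the inhibitor of Gli proteins. The calls of Smo and Sufu were made in 7 and 2 of the 12 fits. In the Wnt list 12 of 40 fell and 1 rose (32.5%; median -0.76), and 7 of these 13 calls were made in each fit. The count of the Wnt list was 8 without WKY 3-month replicate 1 or 2, SHR 5-day replicate 1 or 2, or SHR 3-month replicate 1. Among the ligands, Wnt5b (gene 282582), which regulates chondrocyte maturation, had a median of 9.12 CPM at 5 days (range 2.78 to 15.5) and 0.867 CPM at 3 months (range 0.657 to 4.499), for a log2 change of -2.49 ± 0.38 (SE, adjusted p by edgeR 0.00358), and Wnt5a fell as well. Of the receptors, Fzd2, Fzd4, Fzd9, Lrp4 and Ror2 fell, those of Fzd2, Fzd4 and Lrp4 being calls made in 4 of the 12 fits each. Tcf7l1 (gene 312451), a transcription factor at the end of the pathway, lay between 37.8 and 139 CPM at 5 days and between 25.8 and 102 CPM at 3 months, with medians of 52.6 and 28.9 CPM and a log2 change of -0.68 ± 0.11 (SE, adjusted p by edgeR 0.00373). Tcf7 and Ctnnb1, the gene of beta-catenin, fell too, with calls made in 11 and 7 of the 12 fits. Nkd1 (gene 364952), a feedback inhibitor that the pathway induces, ran from 2.64 to 25.1 CPM at 5 days (median 12.4) and from 0.886 to 2.999 CPM at 3 months (median 2.32), a log2 change of -2.56 ± 0.38 (SE, adjusted p by edgeR 0.002897). The secreted antagonist Frzb fell, with a call made in 3 of the 12 fits, while Sfrp4 (gene 89803), of the same family, rose. Sfrp4 had a median of 4.52 CPM at 5 days (range 3.66 to 12.5) and 20.9 CPM at 3 months (range 17.4 to 54.5). Its log2 change was 2.26 ± 0.32 (SE, adjusted p by edgeR 0.00227), with each 3-month library above each 5-day library.

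Elastic fibre genes included elastin itself, which was abundant at 5 days. Eln (gene 25043), the gene of elastin, lay between 161 and 5130.4 CPM at 5 days and between 17.4 and 92.9 CPM at 3 months, with medians of 2629.6 and 27.6 CPM and a log2 change of -5.74 ± 0.84 (SE, adjusted p by edgeR 0.00287). No library overlapped, though the 5-day values were spread widely. Fbn2 (gene 689008), a fibrillin of fetal microfibrils, ran from 35.1 to 193 CPM at 5 days (median 89.2) and from 0.0521 to 26.9 CPM at 3 months (median 6.34), a log2 change of -3.80 ± 0.64 (SE, adjusted p by edgeR 0.00557), also without overlap. Mfap4 (gene 287382) had a median of 74.2 CPM at 5 days (range 14.4 to 548) and 7.16 CPM at 3 months (range 0.818 to 29.7), for a log2 change of -4.18 ± 1.08 (SE, adjusted p by edgeR 0.0299), with a call made in 7 of the 12 fits. These were the 3 called members of 16 (18.8%, beside 14.1% of all tested genes). The list's median of -0.14 was near that of all genes.

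In the fibrillar collagen and crosslinking list 5 of 29 rose and 4 fell (31.0%; median -0.13). Plod2 (gene 300901), which hydroxylates lysines used in crosslinks, lay between 223 and 667 CPM at 5 days and between 643 and 1192 CPM at 3 months, with medians of 459 and 885 CPM and a log2 change of 1.10 ± 0.14 (SE, adjusted p by edgeR 0.00143). P4ha1 (gene 64475), a prolyl hydroxylase subunit, ran from 438 to 769 CPM at 5 days (median 487) and from 570.3 to 1722 CPM at 3 months (median 801), a log2 change of 0.84 ± 0.17 (SE, adjusted p by edgeR 0.0108), and P4ha2, Plod1 and Lox rose as well. Col3a1 (gene 84032), a fibrillar collagen of soft tissue, had a median of 5245 CPM at 5 days (range 2298 to 6127) and 1302 CPM at 3 months (range 444 to 4398), for a log2 change of -1.74 ± 0.36 (SE, adjusted p by edgeR 0.0133), and Col6a1, Col12a1 and the hydroxylase subunit P4ha3 fell. Of the 9 calls, 5 were made in each of the 12 fits, and 1 in batch 1 alone. Those of Col6a1, Col12a1, P4ha3 and Lox were made in 4, 5, 2 and 5 of the 12 fits. The count was 5 without WKY 3-month replicate 2 or SHR 3-month replicate 3.

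In the list of small proteoglycans and matrix glycoproteins 3 of 21 rose and 3 fell (28.6%; median 0.15). Postn (gene 361945), a matricellular protein of growing connective tissue, lay between 178 and 1112 CPM at 5 days and between 14.9 and 119.8 CPM at 3 months, with medians of 584 and 58.3 CPM and a log2 change of -3.36 ± 0.51 (SE, adjusted p by edgeR 0.00342). All 5-day libraries were above all 3-month libraries. Smoc1 (gene 314280), a basement membrane glycoprotein, ran from 83.5 to 509 CPM at 5 days (median 309) and from 679 to 1944 CPM at 3 months (median 1320.2), a log2 change of 2.04 ± 0.41 (SE, adjusted p by edgeR 0.0113), and here all 3-month libraries were above all 5-day libraries. Cilp2 (gene 306356), a cartilage protein, had a median of 7.87 CPM at 5 days (range 0.981 to 33.01) and 0.623 CPM at 3 months (range 0.0521 to 7.11), for a log2 change of -3.09 ± 0.38 (SE, adjusted p by edgeR 0.00117). Vcan (gene 114122), the proteoglycan versican, lay between 102 and 254 CPM at 5 days and between 150.4 and 444 CPM at 3 months, with medians of 161 and 277 CPM and a log2 change of 0.81 ± 0.15 (SE, adjusted p by edgeR 0.00716). Thbs2, a thrombospondin, rose too and Smoc2 fell, with calls made in 2 and 10 of the 12 fits. Of the list's 6 calls 4 were made in each fit.

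Of 32 matrix proteases and inhibitors tested 9 rose and 0 fell (28.1%, median 0.30), and 19 of the 32 had a positive fold change. Adamts5 (gene 304135), an aggrecan-cleaving protease, ran from 43.8 to 124 CPM at 5 days (median 62.9) and from 89.4 to 317 CPM at 3 months (median 209.98), a log2 change of 1.39 ± 0.24 (SE, adjusted p by edgeR 0.00662). Htra1 (gene 65164), a serine protease of the matrix, had a median of 361 CPM at 5 days (range 92.9 to 429) and 708 CPM at 3 months (range 501 to 1049), for a log2 change of 1.47 ± 0.32 (SE, adjusted p by edgeR 0.0155), with no overlap between ages. Htra1 levels were higher at 3 months in both strains and both batches. Mmp10 (gene 117061), a stromelysin, lay between 0.0598 and 23.2 CPM at 5 days and between 6.19 and 273 CPM at 3 months, with medians of 7.43 and 45.4 CPM and a log2 change of 3.59 ± 0.76 (SE, adjusted p by edgeR 0.0144), a call that was lost without WKY 3-month replicate 1. Mmp19 (gene 304608) ran from 67.2 to 159 CPM at 5 days (median 122.6) and from 145 to 234 CPM at 3 months (median 162), a log2 change of 0.59 ± 0.13 (SE, adjusted p by edgeR 0.0171). Mmp3, Ctsb and Plat rose too, as did the inhibitors Timp1 and Timp2. The calls of Mmp3, Ctsb, Timp1 and Timp2 were made in 11, 4, 6 and 3 of the 12 fits. Of the 9 calls, 4 were made in each fit that left out 1 library, and 3 in batch 1 alone. The count was 4 without WKY 3-month replicate 1.

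Cytokines and genes of the NF-kB response rose, 8 of 33 tested with 0 falling (24.2%; median 0.97). Il6 (gene 24498), a cytokine of inflammation, had a median of 6.51 CPM at 5 days (range 0.478 to 19.1) and 90.1 CPM at 3 months (range 21.02 to 102), for a log2 change of 3.38 ± 0.70 (SE, adjusted p by edgeR 0.0127), without overlap. Il11 (gene 171040), of the same receptor family, lay between 0.826 and 2.06 CPM at 5 days and between 2.63 and 8.94 CPM at 3 months, with medians of 1.5998 and 3.86 CPM and a log2 change of 1.64 ± 0.30 (SE, adjusted p by edgeR 0.00826), also without overlap. Both cytokines were thus higher in all 6 libraries at 3 months than in any at 5 days. Ccl20 (gene 29538), a chemokine, ran from 0 to 57.2 CPM at 5 days (median 18.6) and from 53.2 to 459 CPM at 3 months (median 152), a log2 change of 3.40 ± 0.75 (SE, adjusted p by edgeR 0.01702). Cxcl6 (gene 60665), a chemokine that attracts neutrophils, had a median of 52.2 CPM at 5 days (range 0 to 133) and 245 CPM at 3 months (range 11.03 to 1249.8), for a log2 change of 3.25 ± 0.77 (SE, adjusted p by edgeR 0.0217), and its call was lost without WKY 3-month replicate 3 or either of the SHR 5-day replicates 1 and 2. Cxcl3, Csf3, Nos2 and Lcn2 were the others that rose, with calls made in 8, 7, 7 and 5 of the 12 fits. Of the list's 8 calls 3 were made in each fit, and its count ran from 3 to 12. It was 3 without SHR 5-day replicate 2, 4 without SHR 5-day replicate 1, and 5 without WKY 5-day replicate 3, WKY 3-month replicate 1 or SHR 3-month replicate 1. SHR 5-day replicate 3 held the lowest 5-day level of Il6, Ccl20 and Cxcl6, with 0 counts of the last 2. The list's median was 0.51 in WKY and 1.66 in SHR, and the calls fell to 2 without the libraries with Y-linked transcripts and to 3 in batch 1 alone. Summed macrophage markers ran from 20.5 to 111 CPM at 5 days and from 16.1 to 78.8 CPM at 3 months over 15 genes, with 1 of 7 tested called, Cd14, which rose, with a call made in 6 of the 12 fits. Of the 7 tested, 2 had a positive fold change, and their median was -1.46, at -2.74 in batch 1 and 0.85 in batch 2. The defining markers Ptprc and C1qa were at most at 1.37 and 1.74 CPM, in WKY 5-day replicate 1, and at 0 in 7 and 9 libraries. The same library held the highest levels of the macrophage markers Lyz2 (42.9 CPM) and Adgre1 (10.6 CPM), which reached at most 4.81 and 2.85 CPM elsewhere. The part of macrophages in the cytokine result was not tested.

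In the oxidative stress list, which holds antioxidant enzymes, 11 of 29 rose and 0 fell (37.9%, median 0.29), and 10 of the 11 were called neither within WKY nor within SHR. Gpx3 (gene 64317), a secreted glutathione peroxidase, lay between 16.3 and 414 CPM at 5 days and between 179 and 2833 CPM at 3 months, with medians of 82.2 and 1124 CPM and a log2 change of 3.70 ± 0.67 (SE, adjusted p by edgeR 0.007596). Sod3 (gene 25352), the superoxide dismutase of the matrix, ran from 143 to 524 CPM at 5 days (median 159) and from 278 to 1291 CPM at 3 months (median 713), a log2 change of 1.79 ± 0.26 (SE, adjusted p by edgeR 0.00266). The ages of Gpx3 overlapped through 1 library at 3 months, SHR replicate 2 (179 CPM), and those of Sod3 through 1 at 5 days, WKY replicate 3 (524 CPM). Hmox1 (gene 24451), which breaks down heme, had a median of 119 CPM at 5 days (range 102 to 183) and 251 CPM at 3 months (range 184 to 315), for a log2 change of 0.91 ± 0.17 (SE, adjusted p by edgeR 0.00826), with no overlap. Mt1 (gene 24567), a metallothionein that binds zinc and copper, lay between 23.5 and 137 CPM at 5 days and between 20.6 and 1568 CPM at 3 months, with medians of 43.05 and 641 CPM and a log2 change of 3.28 ± 0.64 (SE, adjusted p by edgeR 0.0105). The others that rose were Mt2A, Sod1, Sod2, Gpx1, Gpx4, Srxn1 and Pgd. The calls of Sod1, Sod2 and Srxn1 were made in 4 of the 12 fits each, that of Gpx1 in 3 and that of Pgd in 2. In each fit that left out a library 6 of the 11 calls were made, and 4 in batch 1 alone.

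**Figure D2:**
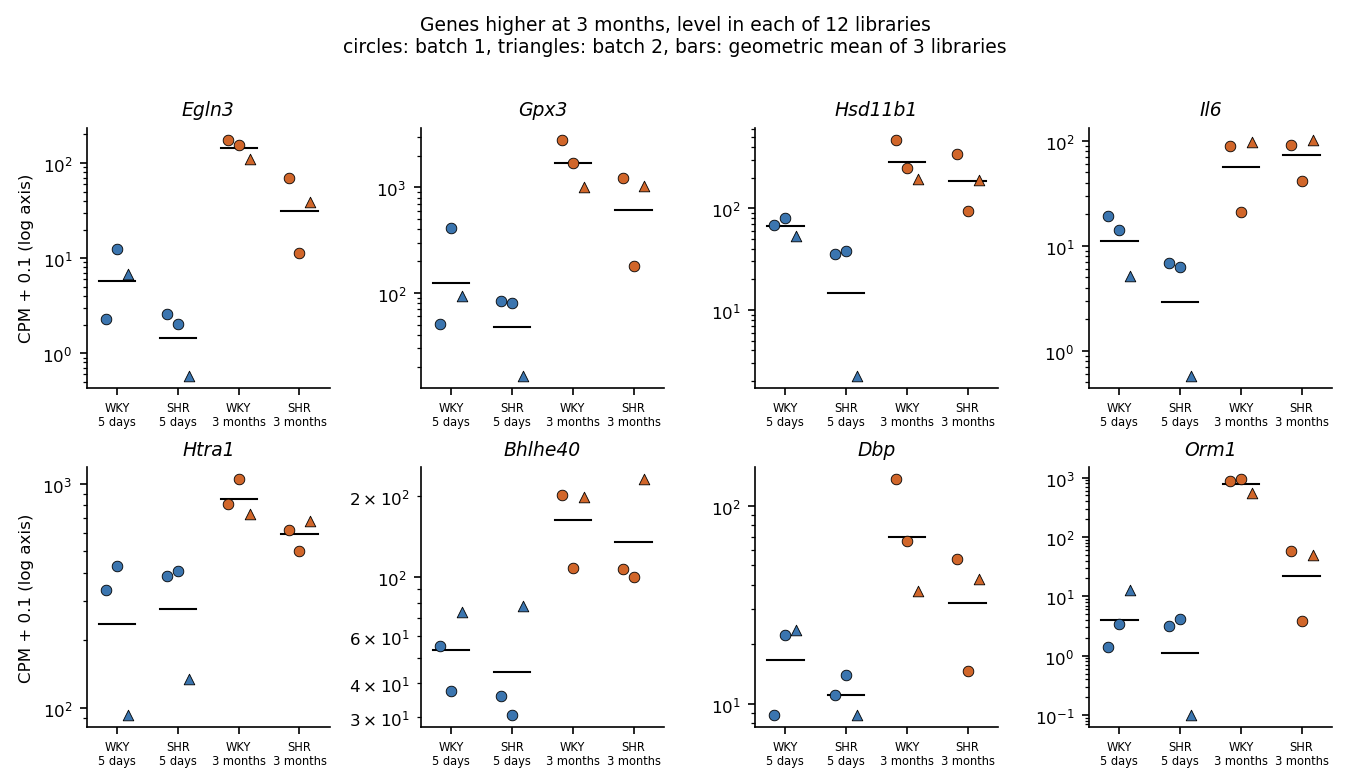
Level of 8 genes in each of the 12 libraries, in CPM plus 0.1 on a log axis, by strain and age; circles are batch 1, triangles batch 2, and bars the geometric mean of 3 libraries. Il6, Htra1, Hsd11b1 and Bhlhe40 show no overlap between ages, while Egln3, Gpx3, Dbp and Orm1 have 3-month libraries within the 5-day range.

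Clock genes rose in 7 of 19 cases and 1 fell (42.1%; median 0.70). The time of day at harvest is not in the labels. Bhlhe40 (gene 79431), a repressor in the clock's feedback loops that hypoxia also induces, ran from 30.4 to 78.1 CPM at 5 days (median 46.2) and from 99.9 to 232 CPM at 3 months (median 153), a log2 change of 1.63 ± 0.19 (SE, adjusted p by edgeR 0.000834). Here the ages did not overlap. Dbp (gene 24309), an output transcription factor of the clock, had a median of 12.4 CPM at 5 days (range 8.65 to 23.5) and 48.01 CPM at 3 months (range 14.5 to 137), for a log2 change of 1.92 ± 0.41 (SE, adjusted p by edgeR 0.01502), with overlap. Nr1d1 (gene 252917), the repressor REV-ERB alpha, lay between 13.8 and 111 CPM at 5 days and between 28.5 and 90.8 CPM at 3 months, with medians of 20.7 and 80.2 CPM and a log2 change of 1.30 ± 0.28 (SE, adjusted p by edgeR 0.0155), where WKY 5-day replicate 3 exceeded all libraries at 3 months. Rora (gene 300807), the activator that competes with it, ran from 5.86 to 13.5 CPM at 5 days (median 9.004) and from 12.1 to 17.8 CPM at 3 months (median 13.8), a log2 change of 0.70 ± 0.14 (SE, adjusted p by edgeR 0.01004). Tef also rose, as did Nr1d2 and Hlf with calls made in 5 and 9 of the 12 fits. The repressor Cry1 fell, with a call made in 2 of the 12 fits. Of the 8 calls, 5 were made in each of the 12 fits and 2 in batch 1 alone.

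CLOCK and BMAL1 bind the E-box CACGTG, which reads the same on both strands. Of 17 tested clock genes with a promoter window, 5 hold this motif (29.4%), against 8.999% of the windows of tested genes and 6.42% of all RefSeq windows of this length. Windows of 3 genes that rose are shown with the E-box in capitals, from RefSeq, GRCr8: chr4:143174200-143174499 (plus strand) for Bhlhe40, chr7:115206577-115206876 (plus strand) for Tef and chr10:84229405-84229704 (minus strand) for the second listed start of Nr1d1.
Bhlhe40: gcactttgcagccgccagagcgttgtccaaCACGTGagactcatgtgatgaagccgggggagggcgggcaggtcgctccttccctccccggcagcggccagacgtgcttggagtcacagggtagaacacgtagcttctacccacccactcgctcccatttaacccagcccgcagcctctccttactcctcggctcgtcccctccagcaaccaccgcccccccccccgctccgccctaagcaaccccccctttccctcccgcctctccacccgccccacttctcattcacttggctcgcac
Tef: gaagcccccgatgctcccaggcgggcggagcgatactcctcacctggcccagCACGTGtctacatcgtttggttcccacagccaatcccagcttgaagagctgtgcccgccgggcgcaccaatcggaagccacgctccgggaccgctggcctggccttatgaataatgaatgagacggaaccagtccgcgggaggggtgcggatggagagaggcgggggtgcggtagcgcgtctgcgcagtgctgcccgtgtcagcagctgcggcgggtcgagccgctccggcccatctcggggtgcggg
Nr1d1: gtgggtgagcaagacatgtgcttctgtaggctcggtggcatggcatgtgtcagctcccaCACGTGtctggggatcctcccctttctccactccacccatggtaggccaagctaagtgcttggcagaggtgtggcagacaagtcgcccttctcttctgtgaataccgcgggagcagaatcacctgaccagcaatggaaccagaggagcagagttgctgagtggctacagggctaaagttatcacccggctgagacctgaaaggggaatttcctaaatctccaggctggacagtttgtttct
The other 2 genes with a match, Ciart and Bhlhe41, were not called. A share of genes with several windows is not the same measure as a share of windows, and nothing on binding follows from a match.

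Genes of MHC class I, which present peptides on the cell surface, rose in 6 of 16 tested cases with 0 falling (37.5%; median 0.71). RT1-A2 (gene 24974) had a median of 81.5 CPM at 5 days (range 29.1 to 141) and 107 CPM at 3 months (range 89.5 to 192), for a log2 change of 0.73 ± 0.19 (SE, adjusted p by edgeR 0.0334). RT1-S3 (gene 294228) lay between 0.718 and 9.39 CPM at 5 days and between 4.91 and 23.6 CPM at 3 months, with medians of 4.99 and 7.56 CPM and a log2 change of 1.38 ± 0.34 (SE, adjusted p by edgeR 0.0257). The remaining 4 were RT1-A1, RT1-CE2, RT1-CE3 and RT1-N2. None of the 6 calls was made in each of the 12 fits, RT1-A2 keeping its call in 4 and RT1-S3 in 9 of them. The list's count ran from 0, without WKY 3-month replicate 1, to 8, without WKY 5-day replicate 2, and was at most 3 in 8 of the 12. Members of this family are near-identical and differ in copy number between rat strains, so their estimated counts could be split or misassigned. In the interferon list 3 of 26 rose (Herc6, Irf7 and Gbp4) and 1, Mx2, fell (15.4%; median 0.50), a share close to that of all genes. Herc6 kept its call in each fit, Irf7 and Gbp4 in 2 and Mx2 in 4 of the 12. The list's count was 5 without WKY 5-day replicate 2, 6 without SHR 3-month replicate 2, and 1 or 2 in the other 10 fits. Of 17 complement genes C2 and C6 rose and Masp1 fell (17.6%, beside 14.1% of all tested genes, median 1.25). The call of C2 was made in 3 of the 12 fits. Here the count ran from 2 to 6, with 6 without WKY 5-day replicate 2 or SHR 3-month replicate 2.

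Of 30 genes of glycolysis and the hypoxia response 4 rose and 0 fell (13.3%; median 0.36), a share near the background. Of the 30, 28 had a positive fold change. An unadjusted p under 0.05 was reached by 14, beside 4287 of all 13397 genes tested. The count of calls was 11 without WKY 5-day replicate 1 and 7 without SHR 3-month replicate 2, and 3 at the lowest. Egln3 (gene 54702), the oxygen-sensing prolyl hydroxylase that hypoxia induces, ran from 0.478 to 12.3 CPM at 5 days (median 2.36) and from 11.3 to 176 CPM at 3 months (median 88.9), a log2 change of 4.49 ± 0.55 (SE, adjusted p by edgeR 0.00116). Pfkp (gene 60416), a phosphofructokinase, had a median of 20.2 CPM at 5 days (range 14.1 to 29.1) and 29.8 CPM at 3 months (range 26.6 to 45.7), for a log2 change of 0.68 ± 0.13 (SE, adjusted p by edgeR 0.00995), and Bnip3 (gene 84480), a mitophagy receptor, had 48.9, 69.5 and 137 CPM at 5 days and 91.8, 130.2 and 218 CPM at 3 months as lowest, median and highest levels (log2 fold change 0.88, SE 0.18, edgeR adjusted p 0.0124). Slc16a3, the lactate exporter, was the other one, with a call made in 3 of the 12 fits.

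Cholesterol synthesis genes fell, 9 of 25 with 0 rising (36.0%; median -0.65). Idi1 (gene 89784), which makes the isoprenoid building block, lay between 21.6 and 64.1 CPM at 5 days and between 11.6 and 35.4 CPM at 3 months, with medians of 45.2 and 12.7 CPM and a log2 change of -1.27 ± 0.28 (SE, adjusted p by edgeR 0.016003). Sqle (gene 29230), the squalene epoxidase, ran from 39.9 to 84.02 CPM at 5 days (median 62.2) and from 27.5 to 52.5 CPM at 3 months (median 29.7), a log2 change of -0.73 ± 0.17 (SE, adjusted p by edgeR 0.0184). The ages overlapped in both of these genes. Acat2, Hmgcs1, Cyp51, Msmo1 and Dhcr7 also fell. The calls of Hmgcs1, Cyp51 and Msmo1 were made in 3 of the 12 fits each, and that of Dhcr7 in 7. Of the 9 calls 4 were made in each fit. The count was 4 or 5 without any 1 of the WKY 3-month libraries or of SHR 5-day replicates 2 and 3, and without the 5-day libraries of batch 2 the count was 1.

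Among vasoactive peptide genes, Agtr2 (gene 24182), the type 2 receptor of angiotensin II that is abundant in fetal tissue, had the deepest fall. It had a median of 33.7 CPM at 5 days (range 8.64 to 230) and 0.0261 CPM at 3 months (range 0 to 0.1698), for a log2 change of -9.47 ± 0.93 (SE, adjusted p by edgeR 0.000429), and no library overlapped. Bdkrb2 (gene 25245), the bradykinin receptor, lay between 0.722 and 3.89 CPM at 5 days and between 0.0505 and 1.11 CPM at 3 months, with medians of 2.198 and 0.225 CPM and a log2 change of -2.89 ± 0.57 (SE, adjusted p by edgeR 0.0107). Ece1 (gene 94204), which activates endothelin, ran from 103 to 283 CPM at 5 days (median 127) and from 189 to 359 CPM at 3 months (median 216), a log2 change of 0.76 ± 0.16 (SE, adjusted p by edgeR 0.0148). Adra1d fell too, with a call made in 4 of the 12 fits. With Adra1d, these were the called members of 19 (21.1%, beside 14.1% of all tested genes, median 0.02).

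Steroid and thyroid hormone genes gave 4 that rose and 2 that fell of 28 (21.4%, beside 14.1% of all tested genes, median -0.23). Hsd11b1 (gene 25116), which regenerates active glucocorticoid, had a median of 45.5 CPM at 5 days (range 2.15 to 80.9) and 219.7 CPM at 3 months (range 94.6 to 473), for a log2 change of 2.73 ± 0.55 (SE, adjusted p by edgeR 0.0119), with no overlap. Esr1 (gene 24890), an estrogen receptor, lay between 0.114 and 0.361 CPM at 5 days and between 0.455 and 5.49 CPM at 3 months, with medians of 0.1996 and 0.729 CPM and a log2 change of 2.71 ± 0.69 (SE, adjusted p by edgeR 0.0287), low throughout and called in 7 of the 12 fits. Dio2, the deiodinase that activates thyroid hormone, rose, and Zbtb16 fell, with calls made in 2 and 1 of the 12 fits. Crabp1 (gene 25061), a carrier of retinoic acid, ran from 0.478 to 14.9 CPM at 5 days (median 3.18) and from 0.0521 to 0.584 CPM at 3 months (median 0.103), a log2 change of -4.34 ± 0.80 (SE, adjusted p by edgeR 0.00836). Of these 6 calls 3 were made in each fit, and 3 was the count without WKY 3-month replicate 3, SHR 5-day replicate 1 or SHR 5-day replicate 3.

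In the growth factor lists the called genes moved both ways. In the TGF-beta and BMP list 4 of 42 rose and 4 fell (19.05%, beside 14.1% of all tested genes, median -0.24). Inhbb (gene 25196), an activin subunit, had a median of 19.203 CPM at 5 days (range 5.28 to 45.4) and 142 CPM at 3 months (range 78.3 to 202), for a log2 change of 2.84 ± 0.46 (SE, adjusted p by edgeR 0.00447), and here no library overlapped. Bmp5 (gene 315824), a bone morphogenetic protein, had 370 counts over the 5-day libraries and 3 over those at 3 months, a ratio of 127 (95% counting interval 43.0 to 616, edgeR adjusted p 0.001701). Gdf10 (gene 79216) lay between 0.114 and 7.39 CPM at 5 days and between 0 and 0.224 CPM at 3 months, with medians of 4.98 and 0.0524 CPM and a log2 change of -5.94 ± 0.79 (SE, adjusted p by edgeR 0.00181), and the antagonist Nog and the receptor Bmpr1a fell as well. Tgfb1, Tgfb2 and Bmp6 rose. Of the list's 8 calls 6 were made in each of the 12 fits, and its count ran from 6 to 13. The calls of Tgfb1 and Bmpr1a were made in 2 and 4 of the 12 fits. In the FGF list 5 of 21 rose and 2 fell (33.3%; median 0.15). Fgf10 (gene 25443), a ligand of limb growth, ran from 1.61 to 15.2 CPM at 5 days (median 6.39) and from 6.89 to 69.6 CPM at 3 months (median 20.7), a log2 change of 1.69 ± 0.30 (SE, adjusted p by edgeR 0.00662). Fgfr3 (gene 84489), the receptor that slows growth plate chondrocytes, had a median of 79.01 CPM at 5 days (range 26.2 to 225) and 22.5 CPM at 3 months (range 9.54 to 32.8), for a log2 change of -1.71 ± 0.31 (SE, adjusted p by edgeR 0.007496). Fgfrl1 fell too, and the ligand Fgf18, the feedback inhibitors Spry2 and Spred3 and the transcription factor Etv4 rose. Of the 7 calls of the FGF list 4 were made in each fit, those of Fgfrl1, Fgf18 and Spry2 in 2, 5 and 6 of the 12. In the Notch list Dll1 (gene 84010), a ligand, lay between 0.1196 and 1.03 CPM at 5 days and between 0.292 and 12.98 CPM at 3 months, with medians of 0.272 and 2.72 CPM and a log2 change of 3.10 ± 0.54 (SE, adjusted p by edgeR 0.00649), and it was the 1 member of 16 that rose, beside 4 that fell (31.2%, median -0.27), Notch3, Heyl, Dlk1 and Dlk2. Of these 5 calls 4 were made in each fit, and that of Heyl in 5 of the 12.

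Limb patterning genes moved both ways, 5 rising and 6 falling of 48 (22.9%, beside 14.1% of all tested genes, median -0.08). Hoxc8 (gene 24460), a homeobox gene, ran from 1.68 to 12.4 CPM at 5 days (median 3.46) and from 7.65 to 25.6 CPM at 3 months (median 12.2), a log2 change of 1.77 ± 0.28 (SE, adjusted p by edgeR 0.00439), and Hoxc6 and Hoxc9 of the same cluster rose. Hoxd11 (gene 102553842), which patterns the forearm and lower leg, had a median of 0.685 CPM at 5 days (range 0.314 to 2.98) and 0.105 CPM at 3 months (range 0 to 0.253), for a log2 change of -3.38 ± 0.63 (SE, adjusted p by edgeR 0.00836), with no overlap. Shox2 (gene 25546), a homeobox gene of limb growth, lay between 12.7 and 70.7 CPM at 5 days and between 8.24 and 28.997 CPM at 3 months, with medians of 32.5 and 13.3 CPM and a log2 change of -1.08 ± 0.15 (SE, adjusted p by edgeR 0.00227). Tbx4, the hindlimb T-box gene, fell, as did Hoxa10, Tbx15 and Prrx2, while Irx3 and Irx5 rose. Of the list's 11 calls 8 were made in each of the 12 fits, and its count ran from 8 to 14. The calls of Hoxa10, Tbx15 and Hoxc6 were made in 5, 6 and 6 of the 12 fits.

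Of 40 genes of DNA replication 1 passed the test, Mcm2, which fell (2.5%; median -0.66), with a call made in 2 of the 12 fits. Of the 40, 39 had a negative fold change. An unadjusted p under 0.05 was reached by 21, beside 4287 of all 13397 genes tested. Without WKY 5-day replicate 2, 17 of the 40 were called, without SHR 3-month replicate 2, 2, and in the other fits 0 or 1. The median was -0.29 in batch 1 and -1.35 in batch 2. Of 40 mitosis genes 0 were called by edgeR (1 at an unadjusted p under 0.05) and 1 by DESeq2 (median -0.26, at 0.14 in batch 1 and -1.02 in batch 2). Mki67 (gene 291234), a marker of cycling cells, ran from 60.3 to 269 CPM at 5 days (median 101) and from 65.3 to 135 CPM at 3 months (median 77.8), a log2 change of -0.36 ± 0.31 (SE, adjusted p by edgeR 0.458). Its fold change was 0.08 in batch 1 and -1.22 in batch 2. Of 27 p53 targets and senescence genes 1 rose, Gadd45a (3.70%; median 0.02), with a call made in 4 of the 12 fits. Of 29 genes of the YAP, SRF and actomyosin list 1 rose, Ankrd1, and Actg2, Srf and Myh10 fell. That share was 13.8%, beside 14.1% of all tested genes (median -0.24), and none of these calls was made in each fit. The count of this list ran from 0, without WKY 3-month replicate 1 or SHR 5-day replicate 1 or 2, to 7, without SHR 3-month replicate 2.

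**Figure D3:**
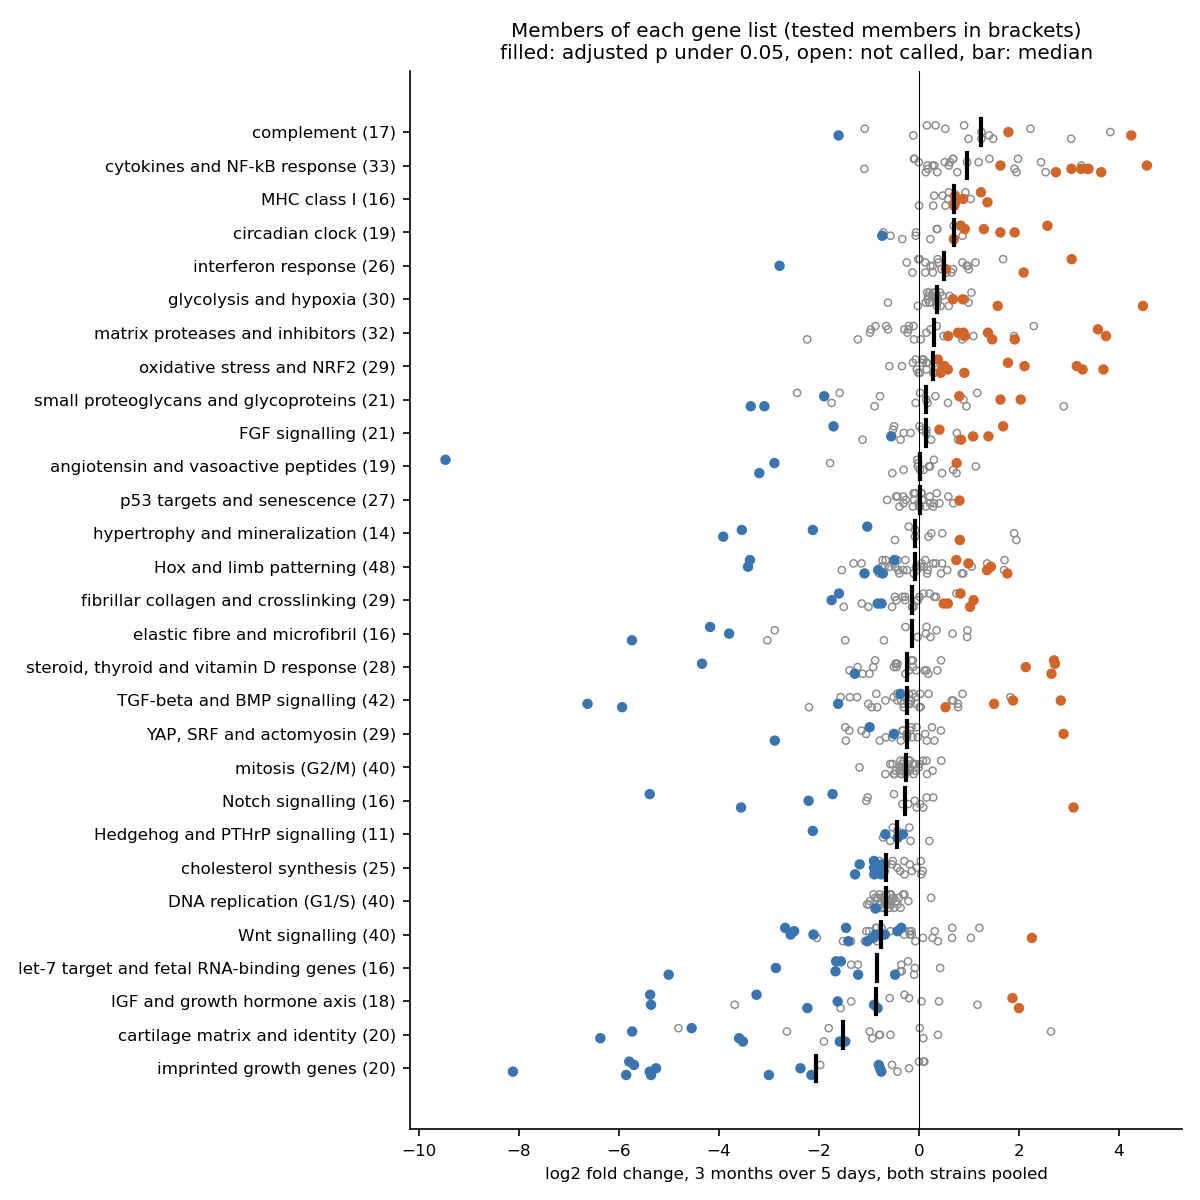
Log2 fold change (3 months over 5 days, both strains pooled) of the tested members of 29 gene lists, sorted by median; filled points were called, open points were not, and bars are medians. Imprinted growth genes have the lowest median at -2.06 and complement genes the highest at 1.25.

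The largest changes also included genes of other functions. Tnmd (gene 64104), a tendon and ligament protein, had 1295 counts over the 5-day libraries and 0 in all 3-month libraries, at least 443-fold lower by a floor of 3 counts over the group (edgeR adjusted p 0.000576). Rtl3 (gene 317221), a gene derived from a retrotransposon, had a median of 24.8 CPM at 5 days (range 10.998 to 172) and 0.332 CPM at 3 months (range 0.0524 to 0.792), for a log2 change of -6.89 ± 0.57 (SE, adjusted p by edgeR 0.000247). Ppp1r1b (gene 360616), a phosphatase inhibitor, lay between 1.08 and 46.3 CPM at 5 days and between 0 and 0.112 CPM at 3 months, with medians of 3.196 and 0.0261 CPM and a log2 change of -7.64 ± 0.68 (SE, adjusted p by edgeR 0.000294). None of these 3 genes exceeded its lowest 5-day level in any library at 3 months. Nrk (gene 315907), a kinase known from the placenta, ran from 16.2 to 204 CPM at 5 days (median 53.4) and from 0.0521 to 1.81 CPM at 3 months (median 1.36), a log2 change of -6.004 ± 0.54 (SE, adjusted p by edgeR 0.000294). Gpc3 (gene 25236), a glypican that restrains growth, had a median of 11.7 CPM at 5 days (range 3.01 to 37.8) and 0.0521 CPM at 3 months (range 0 to 0.577), for a log2 change of -6.15 ± 0.94 (SE, adjusted p by edgeR 0.00342). The ages did not overlap in either gene.

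Among the genes that rose most, Cyp4b1 (gene 24307), a cytochrome P450, lay between 0.0977 and 1.14 CPM at 5 days and between 2.098 and 16.9 CPM at 3 months, with medians of 0.277 and 6.52 CPM and a log2 change of 4.34 ± 0.47 (SE, adjusted p by edgeR 0.000692), with no overlap. Orm1 (gene 24614), an acute-phase protein, ran from 0 to 12.9 CPM at 5 days (median 3.22) and from 3.68 to 944 CPM at 3 months (median 304), a log2 change of 5.57 ± 1.11 (SE, adjusted p by edgeR 0.0114). At 3 months WKY lay between 550.3 and 944 CPM and SHR between 3.68 and 56.7 CPM, and the strain-by-age difference was not called (edgeR adjusted p 1). C6 (gene 24237), a terminal complement protein, had a median of 0.155 CPM at 5 days (range 0 to 1.03) and 3.79 CPM at 3 months (range 0.336 to 15.7), for a log2 change of 4.25 ± 0.66 (SE, adjusted p by edgeR 0.00372). The ages of Orm1 and C6 overlapped. Snap25 (gene 25012), a membrane fusion protein of neurons, lay between 0 and 0.155 CPM at 5 days and between 0.05598 and 35.1 CPM at 3 months, with medians of 0.0244 and 1.99 CPM and a log2 change of 7.23 ± 0.84 (SE, adjusted p by edgeR 0.000923). Rnase10 (gene 305840) and Stxbp5l (gene 288080) had log2 fold changes of 5.68 and 4.63. Wfdc18 (gene 171059), Csf2rb (gene 171081) (the receptor subunit shared by GM-CSF, IL-3 and IL-5) and Sectm1b (gene 287884) rose by 4.84, 5.29 and 4.46 on the log2 scale, though libraries near 0 remained at 3 months. The call of Sectm1b was lost without WKY 3-month replicate 1.

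Of the 1889 genes called over both strains, 1353 (10.1% of those tested) were called in neither strain taken by itself, 756 of them higher and 597 lower at 3 months. Within WKY 501 genes were called (3.74%) and within SHR 276 (2.06%), each from 3 libraries against 3. Of the pooled calls 154 were also made in both strains, 286 in WKY and not SHR, and 96 in SHR and not WKY. A further 87 genes were called in a strain and not when pooled. These classes follow from thresholds on the same libraries, so what distinguishes them is described and not tested.

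The 1353 genes had smaller changes than the rest. Their median absolute log2 fold change was 0.68, against 1.67 in the other 536 called genes, and 893 of them (66.0%) changed by less than 2-fold, against 151 (28.2%). All 1353 had the same sign in both strains, and 824 had an unadjusted p under 0.05 in both, 307 in WKY and not SHR, and 222 in SHR and not WKY. Their median standard error was 0.17 in the pooled fit, 0.24 within WKY and 0.24 within SHR. In 210 of them the ages did not overlap in any library, compared with 249 of the other 536. With each strain fitted on its own 6 libraries, 1312 of the 1353 were likewise not called. In all 12 fits lacking 1 library 403 of the 1353 kept a pooled call, and 453 of the other 536. The gene lists above differed in this respect. In the oxidative stress list 10 of the 11 calls needed the pooling, in the protease and cholesterol lists 8 of 9 each, in the cytokine and clock lists 7 of 8 each, in the MHC class I list all 6, and in the imprinted list 2 of 13, beside 1353 of 1889 overall. Removing WKY 3-month replicate 1 left 832 genes of this kind in that fit, SHR 5-day replicate 3 873, SHR 3-month replicate 1 826 and SHR 3-month replicate 3 757.

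Among the higher genes of this kind, Hoxc8 (gene 24460) had the smallest adjusted p, with a log2 fold change of 1.71 in WKY (edgeR adjusted p 0.0557) and 1.84 in SHR (0.0632). Prcp (gene 293118), a lysosomal peptidase that inactivates angiotensin II, ran from 20.8 to 47.2 CPM at 5 days (median 33.4) and from 41.6 to 66.8 CPM at 3 months (median 51.3), a log2 change of 0.71 ± 0.12 (SE, adjusted p by edgeR 0.00488). Abcc3 (gene 140668), an export pump, had a median of 16.5 CPM at 5 days (range 14.2 to 22.8) and 27.2 CPM at 3 months (range 24.5 to 28.7), for a log2 change of 0.65 ± 0.11 (SE, adjusted p by edgeR 0.00523). Although the change of Abcc3 was small, its ages did not overlap. Mfsd6 (gene 301388), a transporter of the major facilitator family, lay between 1.47 and 14.1 CPM at 5 days and between 17.8 and 29.5 CPM at 3 months, with medians of 5.43 and 22.2 CPM and a log2 change of 1.94 ± 0.33 (SE, adjusted p by edgeR 0.00557), again without overlap. Il18bp (gene 84388), the secreted inhibitor of interleukin 18, ran from 5.92 to 8.65 CPM at 5 days (median 6.298) and from 8.82 to 15.3 CPM at 3 months (median 12.8), a log2 change of 0.86 ± 0.15 (SE, adjusted p by edgeR 0.00568), without overlap. Tgif1 (gene 316742), a repressor of TGF-beta signalling, had a median of 29.9 CPM at 5 days (range 23.1 to 44.95) and 51.9 CPM at 3 months (range 36.2 to 76.03), for a log2 change of 0.83 ± 0.14 (SE, adjusted p by edgeR 0.00557). Rbks (gene 362706), the ribokinase, and Cfap45 (gene 304984), a protein of cilia, rose by 1.21 and 1.68 on the log2 scale.

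Among the lower genes, Rcor3 (gene 684192), a corepressor protein, lay between 9.96 and 30.4 CPM at 5 days and between 7.53 and 20.3 CPM at 3 months, with medians of 12.5 and 8.64 CPM and a log2 change of -0.54 ± 0.08 (SE, adjusted p by edgeR 0.00355), and the fall was -0.53 in WKY and -0.55 in SHR. Adgrl1 (gene 65096), an adhesion receptor, ran from 32.2 to 69.6 CPM at 5 days (median 41.99) and from 5.38 to 23.6 CPM at 3 months (median 16.8), a log2 change of -1.50 ± 0.23 (SE, adjusted p by edgeR 0.00359), without overlap. Wnt5b had log2 fold changes of -2.40 in WKY (edgeR adjusted p 0.0531) and -2.58 in SHR. Igsf10 (gene 310448), an immunoglobulin superfamily member, had a median of 34.9 CPM at 5 days (range 26.1 to 73.5) and 11.1 CPM at 3 months (range 5.296 to 26.4), for a log2 change of -1.83 ± 0.30 (SE, adjusted p by edgeR 0.00488). The ages of Igsf10 overlapped. Slc26a7 (gene 297910), an anion transporter, lay between 0.858 and 14.5 CPM at 5 days and between 0.104 and 0.643 CPM at 3 months, with medians of 4.65 and 0.365 CPM and a log2 change of -3.66 ± 0.59 (SE, adjusted p by edgeR 0.00439), with no overlap. Colgalt2 (gene 289081), which adds galactose to collagen, ran from 1.15 to 27.1 CPM at 5 days (median 1.45) and from 0.101 to 1.23 CPM at 3 months (median 0.2695), a log2 change of -3.46 ± 0.54 (SE, adjusted p by edgeR 0.00393). Eif4ebp2 (gene 361845), a repressor of translation, had a median of 61.3 CPM at 5 days (range 51.1 to 189) and 43.3 CPM at 3 months (range 37.9 to 93.04), for a log2 change of -0.62 ± 0.10 (SE, adjusted p by edgeR 0.00447).

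**Figure D4:**
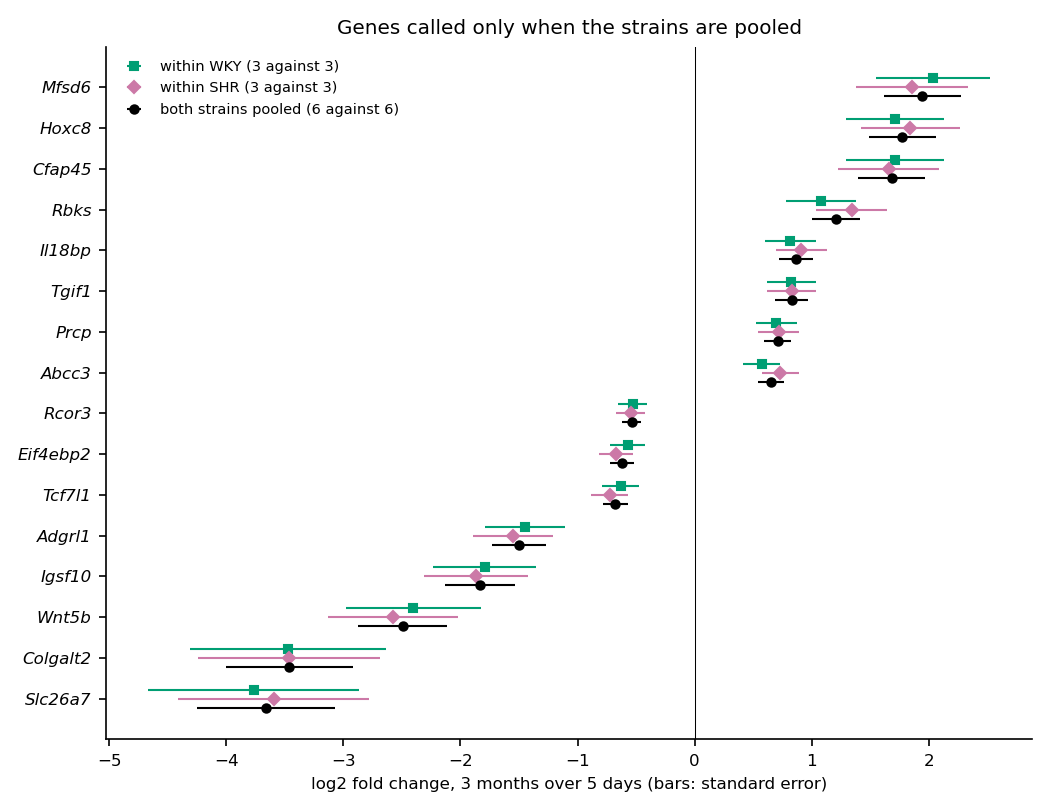
Log2 fold change (3 months over 5 days) of 16 genes called only with both strains pooled, within WKY, within SHR and pooled; bars are standard errors. The estimates of both strains lie close to each other, which the choice of genes by pooled adjusted p favours. The pooled bars, from 6 libraries an age in place of 3, are the shortest in every gene.

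The choice of a threshold sets who belongs to this class. Csf3 was just inside it, with an edgeR adjusted p of 0.050017 in SHR, and Slc25a37 just outside, at 0.049914. For the pooled call, Slc7a3 was just inside (adjusted p 0.049974) and Fbln5 just outside (0.050034).

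No gene had an age change that differed between the strains by edgeR with Benjamini-Hochberg adjustment (0 of 13397; 569 at an unadjusted p under 0.05), while DESeq2 called 34 and limma-voom 0. The smallest adjusted p was 0.0939. Tub (gene 25609), of the tubby family, had a log2 fold change of -3.77 in WKY and -1.71 in SHR (difference 2.05, SE 0.40, edgeR adjusted p 0.668). Ror2 (gene 306782), a receptor for Wnt5a, changed by -0.50 and -1.55 (difference -1.05, edgeR adjusted p 0.652). Sema3e (gene 296789), a guidance ligand, changed by -0.64 and -2.18 (difference -1.54, edgeR adjusted p 0.0939). These 3 genes fell on average in both strains, and the difference in depth did not pass the test. Zfp385b (gene 311137), a zinc finger gene, had 2.81 and 0.50 (edgeR adjusted p 0.0939), and Fabp3 (gene 79131), a fatty acid carrier, -4.05 and -0.91 (0.668). Their pooled calls were made in 9 and 8 of the 12 fits. A p above the threshold does not show that the strains act alike.

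**Figure D5:**
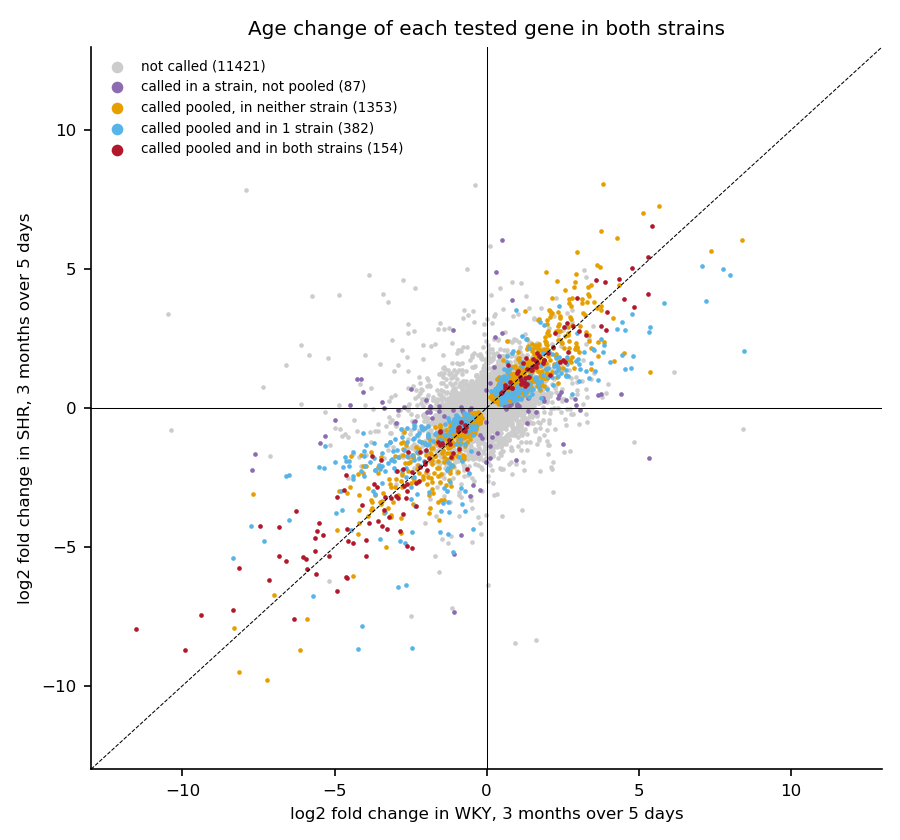
Log2 fold change within SHR against that within WKY for each of the 13397 tested genes, coloured by where the gene was called; the dashed line marks equal change. The 1353 genes called only when pooled lie in the quadrants of equal sign.

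Libraries that share no sample gave mostly the same directions. Of 602 genes called in the 8 libraries of batch 1 (4.49%), 539 (89.5%) had the same sign in the 4 of batch 2, against 68.5% of all tested genes, and 68 were called there too. Of 213 called in batch 2 (1.59%), 196 (92.0%) had the same sign in batch 1. Of 268 called in the 6 WKY libraries fitted alone (2%), 248 (92.5%) had the same sign in SHR, against 75.3% of all tested genes. Of 83 called in SHR fitted alone (0.62%), 80 (96.4%) had the same sign in WKY, and 29 genes were called in both.

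The endothelial genes Pecam1, Cdh5 and Kdr were at or under 0.224 CPM in every library, 1 of 5 tested endothelial genes, Erg, fell, and the summed list ran from 13.6 to 30.7 CPM at 5 days and from 15.95 to 30.8 CPM at 3 months. Summed lymphocyte and granulocyte markers reached at most 0.112 CPM and erythroid markers at most 0.444 CPM. The synovial and tendon list ran from 384 to 877 CPM at 5 days and from 641 to 1263 CPM at 3 months, with Htra1 rising and Tnmd and Mkx falling of 8 tested. Htra1 made up most of each 3-month sum, from 600 of 1172 CPM in SHR replicate 3 to 1151 of 1263 CPM in WKY replicate 2. Of the 8, 3 had a positive fold change, and their median was -0.90. Fibroblast-like markers ran from 21685 to 42152 CPM at 5 days and from 12598 to 37648 CPM at 3 months, with Col3a1 falling as the 1 called of 14. Col1a1 made up most of each of these sums, and 8 of the 14 had a positive fold change (median 0.25). Pericyte and smooth muscle markers ran from 2048 to 9279 CPM and from 633 to 4704 CPM at the 2 ages, with Notch3 falling of 9 tested. Of 4 osteoblast markers tested Sp7 and Phex fell, and the median of the 4 was -1.97, with 0 positive fold changes. Their summed list ran from 19.5 to 141 CPM at 5 days and from 16.2 to 51.3 CPM at 3 months. Of 4 skeletal muscle markers Myod1 rose, from at most 0.537 CPM at 5 days to between 0.117 and 6.04 CPM, and all 4 fold changes were positive (median 0.81). The adipocyte gene Cebpa fell, and 0 of the 5 adipocyte markers tested had a positive fold change (median -0.75). Further, Acp5 of the osteoclast list and Tubb3 and Pmp22 of the nerve list rose, the calls of Acp5, Tubb3 and Pmp22 being made in 9, 11 and 2 of the 12 fits. The part of these cell types in the results above was not tested.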

How the data were processed

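RNA of 12 chondrocyte cultures was sequenced as paired ends on a BGI instrument, per the labels' protocols. The deposited table holds expected counts per gene for 16770 genes, made by the authors on the rat build Rnor_6.0 with RSEM 1.2.28 and Bowtie2 2.4.4 among the tools named, beside DESeq2 1.42.1, per the submitters' processing notes. The authors also deposited 5 tables of log2 expression. The one with all 12 libraries, whose values have equal batch means in every gene, served in 1 alternative. How many reads failed to align is not given in the sources used here.

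Expected counts (9.17% not whole) were rounded. Genes were kept by filterByExpr over the 4 groups (13397), scaled by TMM and tested with edgeR 4.0.16 (robust quasi-likelihood, Benjamini-Hochberg adjustment, threshold 0.05) in R 4.3.3. The pooled model held strain, batch and age. A model with 4 groups and batch gave the change within each strain and the strain-by-age difference. A gene that needed the pooling was called in the pooled model and in neither strain. SE is the absolute log2 fold change divided by the square root of F. CPM are TMM-scaled; sums over marker lists use total counts. Medians of a list are described beside those of all tested genes, with no test of the list.

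Genes named with values were those with the largest pooled change (up to 10 in each direction, with a mean of at least 5 CPM and 1 direction in both strains and batches), up to 4 called members of each list by adjusted p, the 8 in each direction that needed the pooling with the smallest p, the 5 with the smallest interaction p, and a fixed set including Col2a1, Acan and Igf2. The comparison, the lists and the members were chosen with earlier results of these data known. Threshold cases, Sgce and list members given by name alone stand outside this rule.

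Simulated data held 200 changed genes of 13397, each with a mean of at least 5 CPM. The pooled fit called 14.0% of genes changed by 0.5 on the log2 scale, 68.0% at 1, 90.0% at 2 and 96.0% at 3. Of its 148 calls 14 (9.46%) were false, above the nominal 5%. Alternatives were DESeq2 1.42.0, limma-voom (limma 3.58.1), other scalings and filters, no batch term, single batches, and leaving out each library. All 12 libraries were used, and gene symbols are those of the table. A few genes that the naming rule would include are not reported here.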

Additional observations from a re-analysis of the deposited data

Results flagged for a closer look

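Levels of 153 genes at each age (306 sets of 6 libraries) were searched for a library far from the other 5 by Dixon's ratio, which chance gives in about 1 of 20 sets, and 17 were found. SHR 5-day replicate 3 was low in Ccl20 (0 CPM), Cxcl6 (0 CPM), Il6 (0.478 CPM), Hsd11b1 (2.15 CPM) and Igf1 (10.7 CPM), and high in P4ha1 (769 CPM). SHR 3-month replicate 2 stood apart in Acp5 (8.47 CPM), Adgrl1 (5.38 CPM), Crabp1 (0.584 CPM) and Gpx3 (179 CPM), and SHR 3-month replicate 3 in Col9a3 (4.76 CPM) and Comp (35.1 CPM). WKY 5-day replicate 3 stood apart in Gdf10 (0.114 CPM) and Sod3 (524 CPM), WKY 5-day replicate 2 in Gadd45a (92.4 CPM) and Mkx (3.04 CPM), and WKY 3-month replicate 1 in Adra1d (0.313 CPM).

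Transcripts of Y-linked genes, which no comparison above used, summed to 131 CPM in WKY 5-day replicate 2 and 60.7 CPM in WKY 5-day replicate 3, against at most 0.944 CPM in the other 10 libraries.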

How the results depend on the processing

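Of the settings tried, RLE scaling (1889 calls), upper-quartile scaling (1909), limma-voom (2109), no count filter (1780), at least 1 CPM in 6 libraries (1634), the average of the contrasts of both strains (1727) and limma on the deposited log2 table of all libraries (2736) stayed within 1.5 times of the 1889 calls. The count moved further with DESeq2 (3164; 1629 higher, 1535 lower; 34 for the strain-by-age difference), without the batch term (663; 335 higher, 328 lower; 542 needing the pooling), in batch 1 alone with its own filter (618; 306 higher, 312 lower; 432 needing the pooling; 1 strain-by-age call), in batch 2 alone (213; 98 higher, 115 lower), with SHR 5-day replicates 1 and 2 averaged (1207; 633 higher, 574 lower), without the 2 libraries with Y-linked transcripts (1231; 629 higher; 787 needing the pooling; 1 strain-by-age call) and without the 5-day libraries of batch 2 (765; 371 higher, 394 lower; 537 needing the pooling). The last 2 settings were chosen after seeing the data. Single batches and left-out libraries have fewer samples; for the other settings the cause was not tested. Leaving out 1 library gave 997 to 2608 calls, 518 to 1328 higher, 479 to 1280 lower, 757 to 1753 needing the pooling and 0 to 1 for the strain-by-age difference. With each strain fitted on its own 6 libraries, 1625 genes needed the pooling.

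Replicate numbers were not taken to pair the libraries. Same-numbered libraries deviated together with correlations of 0.0978 to 0.568 for replicates 1 and 2 and 0.455 to 0.664 for replicate 3. Of the 12, 7 correlated best with their own number, among them every library of replicate 3. Replicate 3 is batch 2 and batch was left in these deviations, so its number cannot be told apart from batch. With the number as a replicate block 1574 genes were called and 1219 needed the pooling.

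Genes named here that turned direction were uncalled. Of the 1353 called genes needing the pooling 3 turned sign in batch 2 alone. The cause was not tested. In batch 1 alone and without the 5-day libraries of batch 2, log2 fold changes were 0.176 and 0.182 for Prc1, 0.312 and 0.318 for Anln, 0.0752 and 0.0901 for Mki67, and -0.267 and -0.265 for Sgce. With limma-voom Anln had 0.0324 and Sgce -0.00523. With 1 library left out, values ran from -0.381 to 0.118 for Prc1, from -0.298 to 0.233 for Anln and from -0.125 to 0.108 for Sgce. Without the libraries with Y-linked transcripts Col1a1 had 0.00452. Changes under 2-fold can be missed, as 14.0% of changes of 0.5 on the log2 scale were called in the simulated data. Depth and number of libraries were not varied there, so the share found in these data is not known.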
